A study of Rattus norvegicus with 12 samples.

Results

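The 9 genes described here are encoded by the mitochondrial genome and specify subunits of the respiratory chain and of ATP synthase. They were chosen by identifier, from 56953 genes listed in each of 2 count tables. mt-Nd1 (ENSMUSG00000064341), mt-Nd2 (ENSMUSG00000064345), mt-Nd4 (ENSMUSG00000064363) and mt-Nd5 (ENSMUSG00000064367) encode subunits of complex I, which takes electrons from NADH. mt-Cytb (ENSMUSG00000064370) encodes cytochrome b of complex III. mt-Co1 (ENSMUSG00000064351), mt-Co2 (ENSMUSG00000064354) and mt-Co3 (ENSMUSG00000064358) encode the core subunits of complex IV, the oxidase that reduces oxygen. mt-Atp6 (ENSMUSG00000064357) encodes a membrane subunit of ATP synthase. All 9 were listed in both tables.

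Mitochondrial DNA is transcribed as long precursors that are cut into separate RNAs, largely at the transfer RNAs that lie between the protein genes. The 9 genes lie on the same strand and can be read from a common precursor, so that their later levels also depend on how long each RNA lasts. In skeletal muscle, fibres that rely on oxidative metabolism hold more mitochondria than fast glycolytic fibres.

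The samples were bulk RNA from muscle of Long-Evans rats labelled wild type (WT). The labels describe 12 samples, 6 of back muscle and 6 of leg muscle, with 3 of each muscle labelled MFIT (injected with a magnetic fluid) and 3 labelled NT (untreated or sham-operated). The series names collection 7 and 14 days after surgery, but a day is not given for single samples, and neither is an age. The column headers spell the muscle and carry the codes ST or WT, 3 columns of each code per muscle, and the labels use neither code for a treatment. The columns were therefore grouped by muscle alone, and each muscle mixes both codes. The muscles were counted in separate tables, and muscle cannot be told apart from collection day or from any other difference between the tables. Nothing in the labels says that the 3 replicates came from separate animals beyond the word biological. The p-values thus set the difference between muscles against the spread among these columns, with both codes pooled.

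The gene counts summed to between 3329994 and 7164682 per column. Unmapped reads made up 52.4% to 61.0% of all reads in the back muscle columns and 56.0% to 61.2% in the leg muscle columns. The identifiers are those of mouse while the tissue is labelled as rat, and the part of this in the low mitochondrial counts was not tested. Back ST2 and back ST3 stood apart from the other 4 back muscle columns. The mean Spearman correlation of back ST2 with those 4 columns was 0.939 across tested genes, against 0.962 with the leg muscle columns. The same values were 0.949 and 0.953 for back ST3. Results for leg against back muscle are given with and without both columns. The labelled tissue was not checked against muscle markers, because the reference used here did not pair the identifiers with gene symbols.

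The 9 genes together held few counts in either muscle. They summed to 7825 counts over the 12 columns. Levels are given as CPM, a gene's counts per 1000000 gene counts of the column. In back muscle the sum was 113 CPM in ST1, 130 in ST2, 129 in ST3, 153 in WT1, 120 in WT2 and 152 in WT3. In leg muscle it was 106 in ST1, 112 in ST2, 156 in ST3, 236 in WT1, 85.5 in WT2 and 162 in WT3. The highest and the lowest of all 12 columns were thus both leg muscle columns of the same code. The mean was 133 ± 16.5 CPM (SD, n = 6) in back muscle and 143 ± 54.5 CPM (SD, n = 6) in leg muscle. As a share of gene counts this was between 0.00855% and 0.0236%. The exact Poisson 95% interval of leg WT1 ran from 223 to 250 CPM and that of leg WT2 from 76.2 to 95.7, so these columns differed by more than counting error. Such intervals, here and below, cover counting error only. The unmapped share was 56.4% in leg WT1 and 56.2% in leg WT2. In bulk tissue, fewer cells or mitochondria and less RNA in each cannot be told apart.

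**Figure D1:**
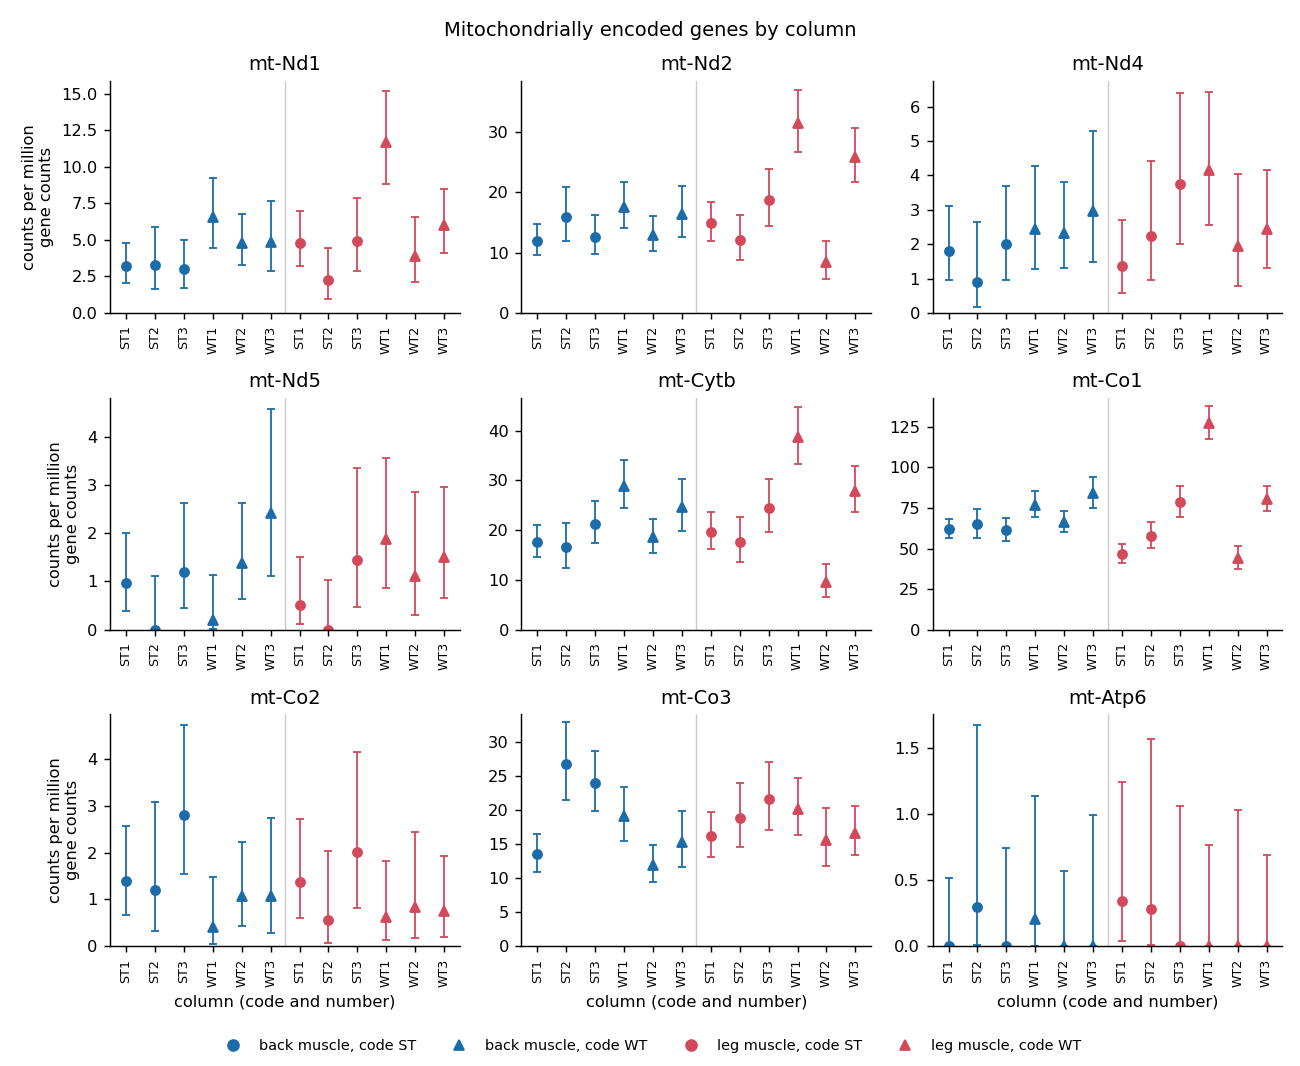
Counts per 1000000 gene counts, CPM (vertical axis, linear, a separate scale in each panel) of the 9 genes in the 12 columns (horizontal axis), with exact Poisson 95% intervals as bars. Blue marks back muscle, red leg muscle, circles the code ST and triangles the code WT. Leg WT1 is highest for mt-Nd1, mt-Nd2, mt-Nd4, mt-Cytb and mt-Co1, while mt-Co3 is highest in back ST2.

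Among the complex I genes, mt-Nd2 gave the most counts, 947 over the 12 columns. Its level in back muscle was 12.0, 15.9 and 12.7 CPM in ST1 to ST3 and 17.5, 13.0 and 16.4 in WT1 to WT3. In leg muscle it was 15.0, 12.1 and 18.7 in ST1 to ST3 and 31.5, 8.38 and 25.9 in WT1 to WT3. The leg muscle range enclosed the whole back muscle range. The spread among columns, as a chi-square per degree of freedom of the counts given their depth (1 for counting error alone), was 1.96 in back muscle and 17.2 in leg muscle. mt-Nd1 had 285 counts and ranged from 3.02 to 6.53 CPM in back muscle (median 4.04) and from 2.25 to 11.7 in leg muscle (median 4.86). mt-Nd1 was again highest in leg WT1, where 56 counts gave an interval of 8.81 to 15.1 CPM. mt-Nd4 had 133 counts, with medians of 2.16 CPM in back muscle and 2.35 in leg muscle. Its spread over counting error was 0.861 in back muscle, so that no variation beyond counting was visible there, and 2.09 in leg muscle.

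mt-Nd5 was close to the limit of detection. It had 61 counts in all, with at most 9 in any column, and 0 in back ST2 and in leg ST2. A count of 0 allows up to 0.901 CPM in back ST2 and 0.844 in leg ST2, taking 3 counts as the limit. Its medians were 1.09 CPM in back muscle and 1.28 in leg muscle. Counted together, the 4 complex I genes ranged from 18.0 to 26.7 CPM in back muscle and from 15.4 to 49.2 in leg muscle.

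mt-Cytb, the only complex III subunit that mitochondria encode, had 1273 counts. Its level in back muscle was 17.6, 16.5 and 21.3 CPM in ST1 to ST3 and 29.0, 18.7 and 24.7 in WT1 to WT3. In leg muscle it was 19.6, 17.7 and 24.5 in ST1 to ST3 and 38.7, 9.50 and 28.0 in WT1 to WT3. As for mt-Nd2, both the highest and the lowest values were from leg muscle. Its spread over counting error was 5.22 in back muscle and 17.9 in leg muscle.

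mt-Co1, the catalytic subunit of complex IV, gave 4042 of the 7825 counts. In back muscle its level was 62.1, 65.2 and 61.5 CPM in ST1 to ST3 and 77.1, 66.6 and 84.3 in WT1 to WT3. In leg muscle it was 46.6, 57.9 and 78.7 in ST1 to ST3 and 127, 44.2 and 80.7 in WT1 to WT3. The highest back muscle column stood 1.37-fold above the lowest, and the highest leg muscle column 2.89-fold above the lowest. The means were 69.5 ± 9.19 CPM (SD, n = 6) in back muscle and 72.6 ± 31.0 (SD, n = 6) in leg muscle.

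mt-Co3, another core subunit of complex IV, had 1011 counts and did not follow mt-Co1. In back muscle its level was 13.5, 26.7 and 23.9 CPM in ST1 to ST3 and 19.2, 11.9 and 15.3 in WT1 to WT3. In leg muscle it was 16.2, 18.8 and 21.6 in ST1 to ST3 and 20.2, 15.7 and 16.7 in WT1 to WT3. Here the leg muscle columns lay inside the back muscle range, the reverse of mt-Nd2, mt-Cytb and mt-Co1. The spread over counting error was 9.62 in back muscle and 1.33 in leg muscle. The highest values were those of back ST2 and back ST3, the columns that also stood apart across all tested genes. In leg WT1, where mt-Co1 was highest, mt-Co3 was within the range of the other leg muscle columns. mt-Co2, the subunit that receives electrons from cytochrome c, had 68 counts, with medians of 1.14 CPM in back muscle and 0.795 in leg muscle.

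mt-Atp6 was nearly undetected. It had 5 counts in all and was at 0 in 4 back muscle and 4 leg muscle columns. In those columns a count of 0 allows between 0.419 and 0.865 CPM. mt-Atp6 overlaps a neighbouring mitochondrial gene. How reads that touch both genes were counted is not given, and the part of this in the low counts of mt-Atp6 was not tested. Its level is therefore uncertain. No gene lengths were used here, so the counts do not rank the 9 genes by level.

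Across the 12 columns, 5 of the 6 genes with enough counts to be tested varied together. On the log2 scale of TMM-scaled CPM, Pearson's r was 0.91 between mt-Nd2 and mt-Cytb, 0.89 between mt-Cytb and mt-Co1 and 0.82 between mt-Nd1 and mt-Nd2. The 10 pairs among mt-Nd1, mt-Nd2, mt-Nd4, mt-Cytb and mt-Co1 gave values from 0.55 to 0.91. For mt-Co3 against the same 5 genes, r ran from -0.12 to 0.27. Without leg WT1 and leg WT2, the highest and lowest columns, r was 0.83 for mt-Cytb with mt-Co1 and 0.12 for mt-Co1 with mt-Co3 over 10 columns. The 10 pairs among the 5 genes then ran from 0.42 for mt-Nd2 with mt-Nd4 to 0.86 for mt-Nd1 with mt-Cytb. The points of each correlation share library and depth, and these values are descriptions.

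**Figure D2:**
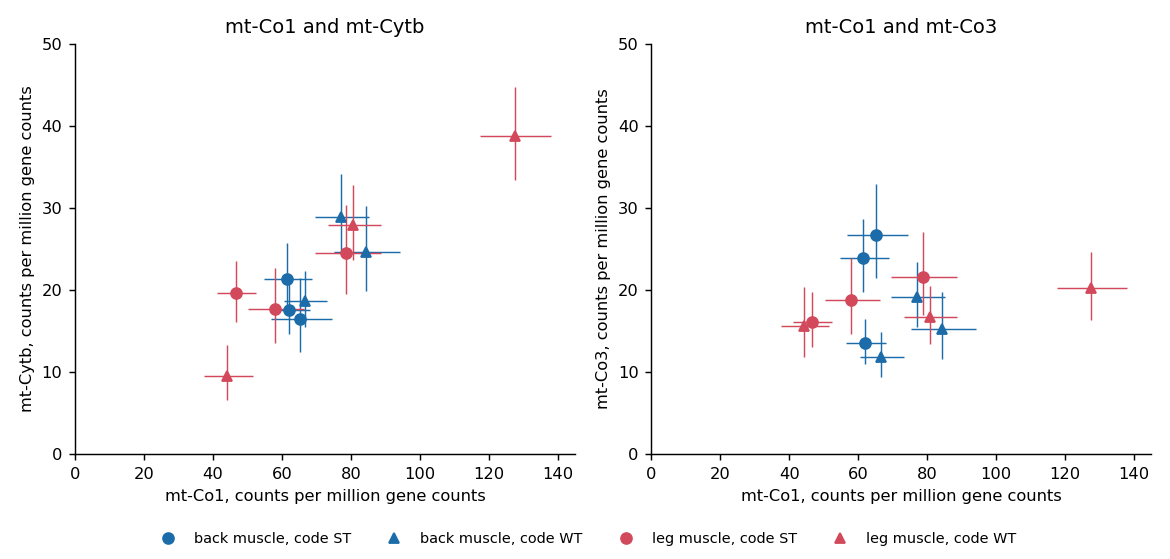
CPM of mt-Co1 (horizontal axis) against mt-Cytb (left) and mt-Co3 (right) in the 12 columns, with exact Poisson 95% intervals. Blue marks back muscle, red leg muscle, circles the code ST and triangles the code WT; mt-Cytb is higher in columns with more mt-Co1, while mt-Co3 stays between 11.9 and 26.7 over the whole range of mt-Co1.

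The share of each gene among the counts of the 9 does not depend on library size. The share of mt-Co1 was 52.5% ± 3.37 (SD, n = 6) in back muscle and 50.3% ± 3.36 (SD, n = 6) in leg muscle. The share of mt-Cytb was 16.0% ± 2.02 (SD, n = 6) and 15.8% ± 2.53 (SD, n = 6). The differences between muscles were smaller than the SD for both genes. The share of mt-Nd2 was 11.0% ± 0.810 (SD, n = 6) in back muscle and 12.7% ± 2.27 (SD, n = 6) in leg muscle. The share of mt-Co3 ran from 9.92% to 20.6% in back muscle and from 8.55% to 18.3% in leg muscle. Its exact binomial 95% interval was 16.8% to 24.7% in back ST2 and 7.91% to 12.2% in back WT2. In leg muscle the interval was 14.1% to 23.1% in WT2 and 6.99% to 10.3% in WT1. Neither pair of intervals overlapped, but each pair was picked as the highest and lowest share of its muscle. A share also moves with the counts of the other genes. In leg muscle the spread of mt-Co3 CPM over counting error was 1.33. Together the 3 complex IV genes made up 63.4% to 71.6% of the counts in back muscle and 60.6% to 70.9% in leg muscle. The 4 complex I genes made up 14.7% to 17.9% and 14.8% to 22.1%.

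**Figure D3:**
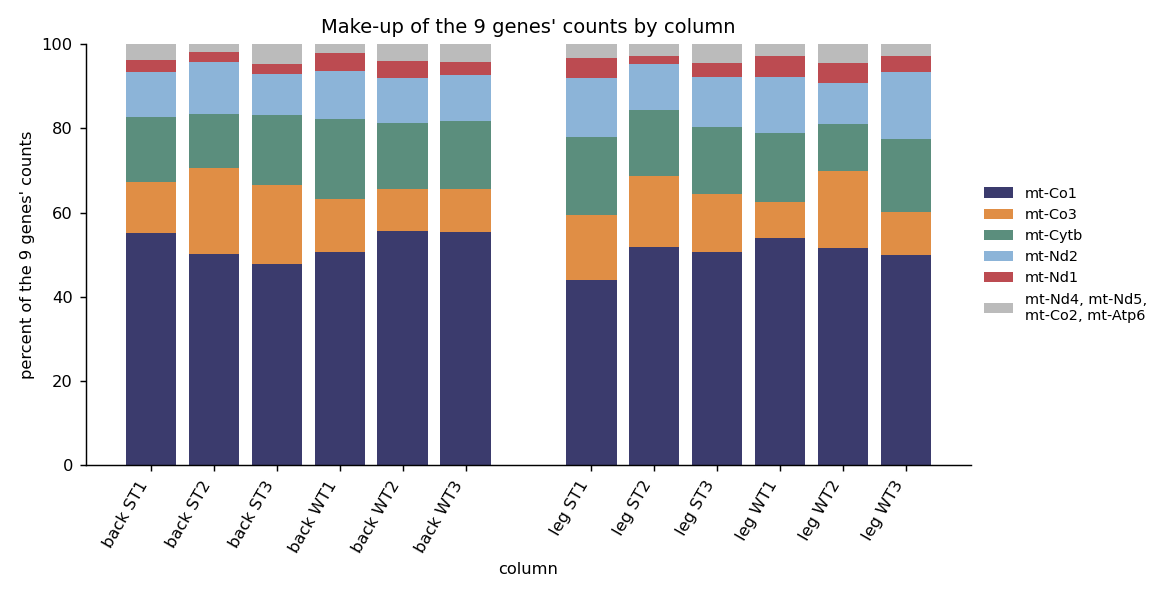
Percent of the counts of the 9 genes (vertical axis) given by each gene in each column (horizontal axis), as stacked bars. mt-Co1 gives 44.1% to 55.7% in every column, and mt-Co3 ranges from 8.55% in leg WT1 to 20.6% in back ST2.

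None of the mitochondrial genes differed between leg and back muscle past the threshold. The test was edgeR's quasi-likelihood test with Benjamini-Hochberg adjustment over 9748 genes that passed the filter on low counts, at an adjusted p of 0.05. Of the 9 genes, 6 passed that filter and 0 were called, where 1480 genes or 15.2% were called over all genes tested. The unadjusted p of the 6 ran from 0.184 to 0.775, and DESeq2 also called 0 of them. The median absolute log2 fold change was 0.16 for the 6 genes and 0.20 for all genes tested. The 6 genes varied more between columns. Their fitted coefficient of variation beyond counting ran from 0.161 to 0.379, against a median of 0.148 over all genes tested. The absence of calls therefore does not show that they differ less than other genes.

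The log2 fold change of leg over back muscle for mt-Co1 was -0.15 (SE 0.26, adjusted p = 0.745). Its 95% interval allows between 0.608-fold and 1.33-fold of the back muscle level. mt-Co3 had the narrowest interval, with a log2 fold change of -0.20 (SE 0.15, adjusted p = 0.386) and limits of 0.699-fold and 1.08-fold. mt-Cytb gave -0.10 (SE 0.28), with limits of 0.611-fold and 1.43-fold. The complex I genes gave 0.20 (SE 0.35) for mt-Nd1, 0.17 (SE 0.28) for mt-Nd2 and 0.09 (SE 0.32) for mt-Nd4. The upper limit was 1.93-fold for mt-Nd1. These intervals give the differences compatible with these columns, without adjustment over all genes, and are not limits of detection. The ranges of back and leg muscle overlapped for each of the 9 genes. Over all genes tested, 6.54% had CPM ranges that did not overlap between the muscles.

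The sign of the estimates for mt-Cytb and mt-Co1 depended on the scaling. The TMM factors were 0.854 to 1.07 in back muscle and 1.01 to 1.19 in leg muscle. Scaling by library size alone moved the median log2 fold change of all genes from -0.01 to 0.21, and then mt-Cytb was at 0.13 and mt-Co1 at 0.07. Relative to that median both stayed below the typical gene. Without back ST2 and back ST3, mt-Nd1 was at -0.03, mt-Nd2 at 0.07 and mt-Nd4 at -0.14. In the same fit mt-Cytb moved to -0.24, mt-Co1 to -0.30 and mt-Co3 to -0.04, and 3238 genes were called over all genes but none of the 6. Without leg WT1, mt-Nd1 was at -0.19, mt-Nd2 at -0.08 and mt-Nd4 at -0.13.

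**Figure D4:**
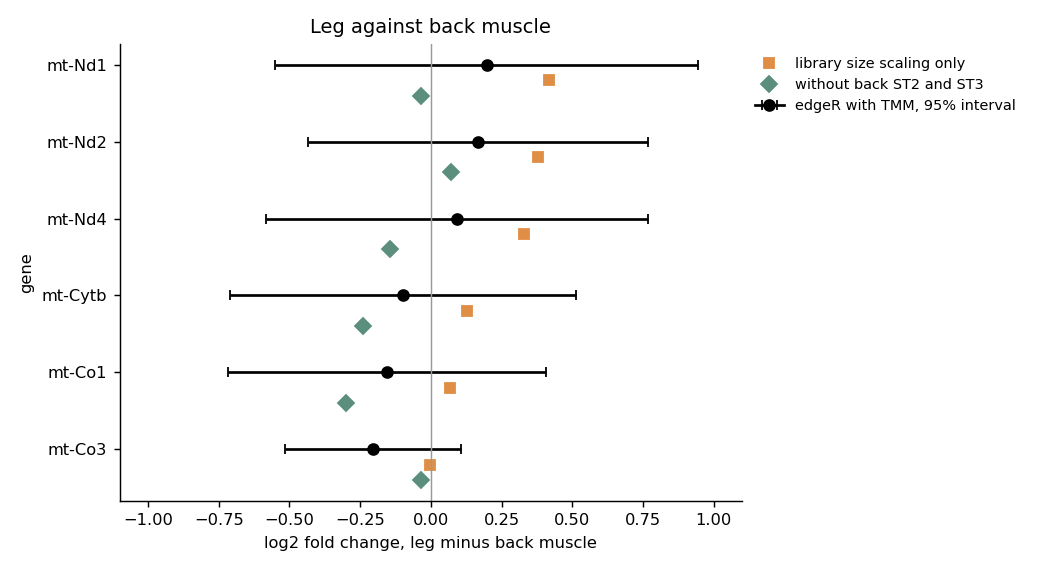
Log2 fold change of leg minus back muscle (horizontal axis) for the 6 genes that passed the filter (vertical axis). Black points with bars are the edgeR estimates with 95% intervals, squares the estimates with library size scaling only and diamonds those without back ST2 and back ST3; all 6 intervals include 0.

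Within the muscles, the columns coded ST and WT were set side by side without a test, since the labels do not say what the codes mean. The labels call the rats wild type (WT) without setting any sample apart, so they do not make ST against WT a contrast of genotypes. In back muscle the ranges of mt-Co1 did not overlap, at 61.5 to 65.2 CPM for ST and 66.6 to 84.3 for WT. The ranges of mt-Nd1 were 3.02 to 3.30 for ST and 4.78 to 6.53 for WT, and those of mt-Nd4 were 0.901 to 2.01 and 2.31 to 2.95. Thus 3 of the 6 genes that passed the filter had separate ranges in back muscle, all lower in the columns coded ST. Over all tested genes, 22.2% had separate ranges in either direction. The counting intervals of ST2 and WT2 overlapped for each of the 3 genes. They were 56.8 to 74.4 and 60.5 to 73.2 CPM for mt-Co1, and 1.65 to 5.91 and 3.25 to 6.79 for mt-Nd1. For mt-Nd4 they were 0.186 to 2.63 and 1.29 to 3.82. For mt-Co1 and mt-Nd1, ST2 and WT2 were the nearest columns of the codes. Other mt-Co1 intervals were apart. Those of ST1 (56.5 to 68.2) and ST3 (54.8 to 68.8) lay below those of WT1 (69.5 to 85.3) and WT3 (75.3 to 94.2). For mt-Nd1 and mt-Nd4 every ST interval overlapped every WT interval. The 3 genes also varied together across the columns, so they are not 3 separate results. With TMM scaling mt-Cytb was separate too, at 15.4 to 20.7 for ST and 21.4 to 33.4 for WT, and the share over all tested genes was 22.5%. mt-Co2, which did not pass the filter, went the other way in back muscle, at 1.20 to 2.82 CPM for ST from 28 counts and 0.408 to 1.08 for WT from 13 counts. mt-Co3 overlapped under both scalings, with 13.5 to 26.7 CPM for ST and 11.9 to 19.2 for WT. Back ST2 and back ST3, which stood apart, are among the ST columns here. With TMM scaling mt-Co1 was at 73.0 CPM in back ST1, 60.9 in ST2 and 58.9 in ST3, so that ST1 was nearest to the WT columns. Without that scaling it was at 62.1 in ST1, 65.2 in ST2 and 61.5 in ST3, so that ST2 was nearest. The order of the ST columns thus depended on the scaling. The part of back ST2 and back ST3 in the gap was not tested.

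In leg muscle the codes overlapped for each of the 9 genes. mt-Co1 was at 46.6 to 78.7 CPM for ST and 44.2 to 127 for WT, and mt-Nd1 at 2.25 to 4.90 and 3.91 to 11.7. Over all tested genes, 35.1% had separate ranges in leg muscle, and 25.3% with TMM scaling. The columns coded WT held both the highest and the lowest leg muscle values of mt-Nd2, mt-Cytb and mt-Co1. Whether the 2 codes differ more in back than in leg muscle was not tested.

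Analysed within the codes, leg against back muscle gave no called mitochondrial gene either. Over all genes tested, 246 of 9782 were called in the ST columns and 2246 of 9640 in the WT columns. mt-Nd4 did not pass the filter in the ST columns and was not tested there. For mt-Co1 the log2 fold change was -0.29 (SE 0.17) in the ST columns and -0.05 (SE 0.42) in the WT columns. For mt-Co3 it was -0.37 (SE 0.20) and -0.01 (SE 0.18). For mt-Nd2 it was -0.04 (SE 0.20) and 0.33 (SE 0.48), so that its sign differed between the codes. The difference between codes in these contrasts was not tested.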

How the data were processed

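The authors deposited 2 tables of raw counts per gene, 1 per muscle, with 6 columns each; the file headers and row names show no normalization. The submitters' processing notes name STAR and DESeq2 but give no version of either. Genome build, annotation and strand setting: not given in the sources used here. In each table, 4 rows of unassigned reads were kept out of library sizes and tests, and genes held 30.3% to 36.4% of all reads. Each of the 12 columns was assigned to a muscle by its header, 6 per muscle, and 0 columns were left out. Levels are CPM, counts per 1000000 gene counts, computed from the deposited counts. Leg and back muscle were compared with edgeR 4.0.16 in R 4.3.3. The settings were filterByExpr, TMM, a robust quasi-likelihood fit, Benjamini-Hochberg adjustment and a threshold of 0.05. The fit was also run on simulated counts. The changes simulated were larger than those fitted for the members, so that run does not bear on the members. SE is the absolute log2 fold change over the square root of F. Alternatives included DESeq2 1.42.0. The named genes are the 9 members. The lists of other respiratory chain genes and cell type markers were not used, because the reference did not pair mouse identifiers with symbols; it also held no mitochondrial sequence or length. No pair of columns agreed within sampling noise (lowest chi-square per degree of freedom 2.20). The members, lists and tests were chosen with earlier results of these data known.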

Additional observations from a re-analysis of the deposited data

Results flagged for a closer look

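Of 46 sets of 6 columns examined for a column far from the others, 1 was singled out, where chance gives about 1 in 20. The share of mt-Nd4 among the counts of the 9 genes was 0.693% in back ST2, far below the other back muscle columns. It rests on 3 counts, and its exact binomial 95% interval runs from 0.143% to 2.01%, which includes the back muscle median of 1.61%.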

How the results depend on the processing

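None of the 6 tested mitochondrial genes was called in any of 135 values from the alternatives, and 12 of these changed sign. Scaling by library size alone gave 0.13 for mt-Cytb and 0.069 for mt-Co1 on the log2 scale. The WT columns alone gave -0.015 for mt-Nd4 and the ST columns alone -0.044 for mt-Nd2. Leaving out back ST2 and ST3 together, chosen after seeing the data, gave -0.033 for mt-Nd1 and -0.14 for mt-Nd4. Leaving out 1 column at a time gave -0.43 to -0.04 for mt-Co1, -0.29 to -0.13 for mt-Co3, -0.34 to 0.043 for mt-Cytb, -0.19 to 0.38 for mt-Nd1, -0.076 to 0.30 for mt-Nd2 and -0.13 to 0.26 for mt-Nd4. Without leg WT1 all 3 complex I genes were negative. Over all genes, 1480 calls became 2246 in the WT columns, 246 in the ST columns, 196 against a log2 fold change of 0.5, 3238 without back ST2 and ST3, and 990 to 2160 leaving out 1 column. These fits used fewer columns or a stricter null, and some called more genes and others fewer. Why the numbers of calls moved was not tested. With library size scaling 87.9% of 1704 calls were higher in leg muscle, against 51.1% with TMM, and 59.2% of 1523 without a low count filter. With no filter mt-Nd5, mt-Co2 and mt-Atp6 had adjusted p of 0.908, 0.455 and 0.863. With the column code as a covariate, 2038 genes were called over all genes. Scaling by gene length was not run. No paired analysis was possible because the columns carry no replicate number that the labels tie to a sample. Depth limits mt-Nd4, mt-Nd5, mt-Co2 and mt-Atp6 most, at 133, 61, 68 and 5 counts.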

Other observations

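The 3 tested genes whose log2 levels over the 12 columns were most like the mean of the 6 mitochondrial genes had Pearson's r of 0.936, 0.926 and 0.924. They are listed as ENSMUSG00000083219, ENSMUSG00000083262 and ENSMUSG00000083563, and the reference used here gives them no symbol. ENSMUSG00000083219 had 1412 counts and ENSMUSG00000083563 had 1016, close to the 1273 of mt-Cytb and the 1011 of mt-Co3. ENSMUSG00000083219 ranged from 17.7 to 32.6 CPM in back muscle and from 13.2 to 42.1 in leg muscle, and ENSMUSG00000083563 from 11.9 to 23.4 and from 11.2 to 31.2. Their adjusted p for leg against back muscle (edgeR) was 0.924 and 0.923. They were picked for their likeness, so these values are a description.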
